A study of Mus musculus with 8 samples.

Results

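The genes described here are 7 genes of plasma cell fate: Igj, Sdc1, Xbp1, Prdm1, Irf4, Mzb1 and Txndc5. They were taken by name from a table of 23997 mouse genes, all 7 were found there, and each reached 100 fragments in at least 1 column, as did 9582 genes in all. RNA sequencing was done on marginal zone B cells of C57BL/6 mice, B cells of the spleen that lie at the border of the follicle and answer blood-borne antigen quickly. Per the labels there are 4 libraries of ACKR3+ cells and 4 of ACKR3- cells, the titles call these GFP positive and GFP negative, and ACKR3 is an atypical receptor that takes up the chemokine CXCL12; the sources used here state neither the allele behind GFP nor the sort, age or sex of the mice. The deposited table holds 1 estimated fragment count and 1 variance per gene for each of 2 conditions, named q2 and q1, which match no label, so nothing below is assigned to ACKR3+ or ACKR3- cells. With 1 pooled value per condition there is no replicate check and no p-value. The errors are SDs from the deposited variances, and whether these refer to 1 library or to a condition's mean is not stated.

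When a B cell becomes a plasma cell, a small set of transcription factors replaces the B cell programme with one for antibody secretion. IRF4 starts this switch, Blimp-1, the product of Prdm1, represses B cell identity genes, and XBP1 enlarges the endoplasmic reticulum (ER) and its folding and export machinery. The secreted antibody needs further proteins: the J chain encoded by Igj links IgM and IgA into polymers, MZB1 assists antibody assembly in the ER, and TXNDC5 is a disulfide isomerase of the ER. Syndecan-1, or CD138, the product of Sdc1, is the surface marker by which plasma cells are usually sorted. Marginal zone B cells are known to become plasma cells faster than follicular B cells and to express Mzb1 before they do so.

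The 7 genes fell into separate ranges of difference. Sdc1, Igj, Txndc5 and Xbp1 exceeded their q1 values in q2 by 2-fold or more, and Prdm1, Mzb1 and Irf4 were within 1.5-fold in either direction. Thus 4 of 7 members were at least 2-fold higher in q2, against 1.84% of the 9582 genes compared, and 0 of 7 were at least 2-fold lower in q2, against 0.438%. By any size, 6 of 7 were higher in q2, against 50.2%. The members were chosen with earlier results of these data known, so these shares describe the list and test nothing. Sdc1, with 43.9 fragments in q1, reached the minimum for comparison through q2 alone, so it could only come out higher in q2. The median log2 ratio of q2 over q1, computed after adding 1 fragment to each value, was 1.02 for the members and 0.00053 for all genes compared. Folds and counting intervals are given without that addition. Summed over the members there were 59139 fragments in q2 and 23675 in q1, and Igj alone supplied 33006 of these in q2 and 3234 in q1. In RNA from many cells, fewer cells of a type and less RNA per cell cannot be told apart.

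**Figure D1:**
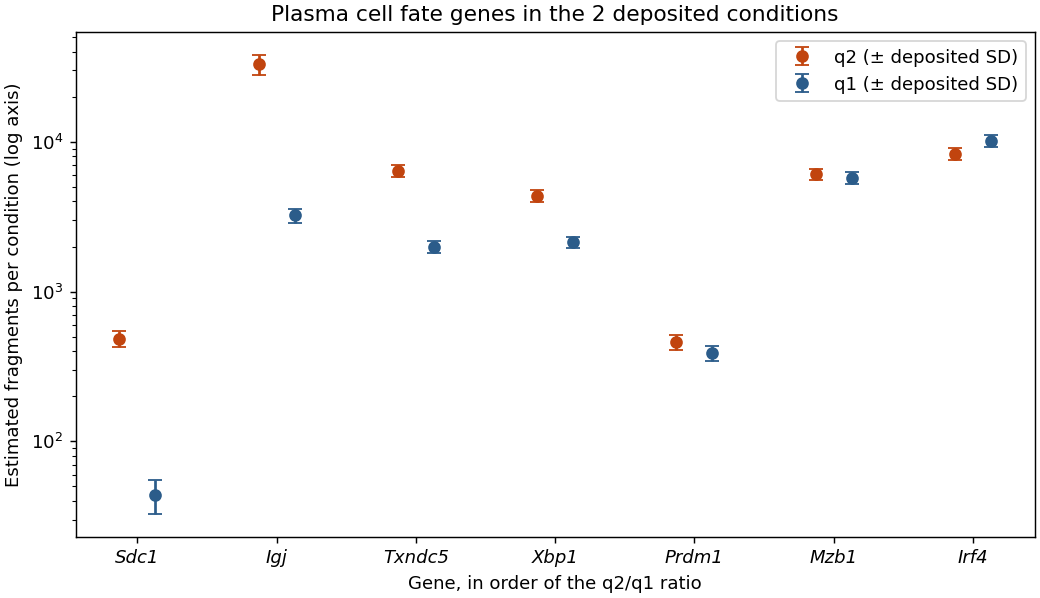
Estimated fragments of each member (log axis) in q2 and q1, with bars of ± 1 deposited SD; genes run from the highest to the lowest ratio of q2 over q1. The bars are apart for Sdc1, Igj, Txndc5 and Xbp1, where q2 is higher, and overlap for Prdm1 and Mzb1; those of Irf4, where q1 is higher, end close to each other.

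Igj, named Jchain in the annotation (chromosome 5, 88519809 to 88527891, minus strand, GRCm38), showed the largest absolute difference among the members. It had 33006 ± 4941 fragments in q2 and 3234 ± 352 in q1, a 10.2-fold difference. The log2 ratio was 3.35 ± 0.27, or 12.6 times its SD, with a Clopper-Pearson 95% interval of 3.30 to 3.40 meant to cover counting error only. This interval treats the deposited estimates as raw fragment counts, and how they were scaled is not stated. All counting intervals given here are therefore approximate. By fragments Igj ranked 25 of all genes in q2 and 1086 in q1. Among the 6184 genes that reached 500 fragments, its ratio ranked 2.

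Sdc1 (chromosome 12, 8771323 to 8793715, plus strand) had a ratio of similar size at a much lower level. It had 484 ± 57.9 fragments in q2 and 43.9 ± 11.1 in q1, an 11.0-fold difference. The log2 ratio of 3.43 ± 0.40 had a counting interval of 3.02 to 3.94, the widest of the 7, since the q1 value rests on few fragments. The ratios of Sdc1 and Igj ranked 12 and 13 among the 9582 genes compared, and they differed by 0.08 ± 0.48, less than the SD of that difference.

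**Figure D2:**
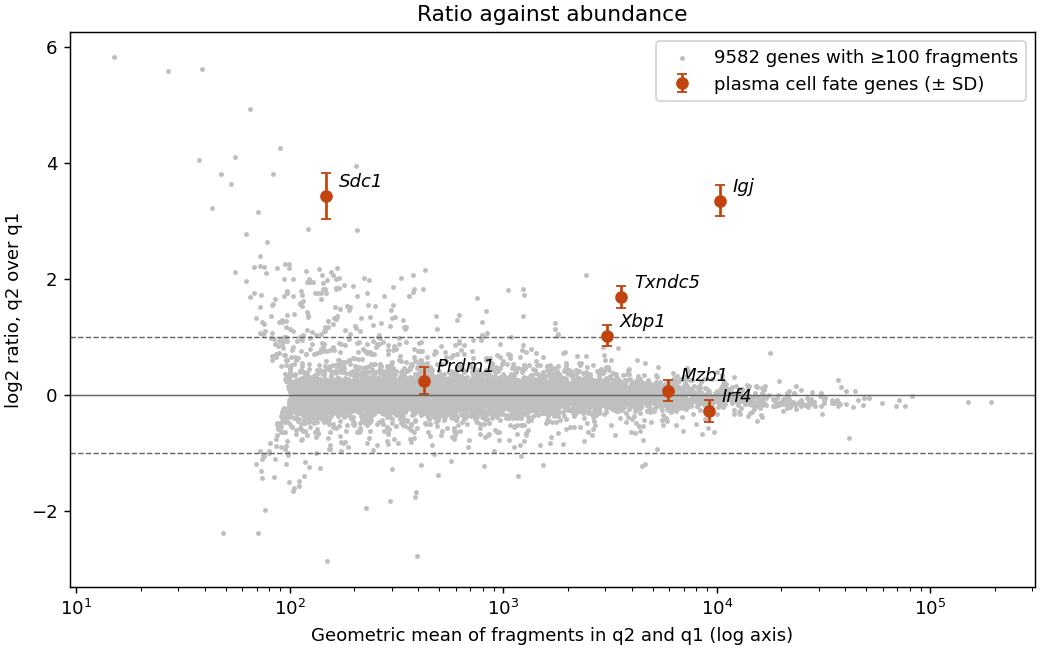
Log2 ratio of q2 over q1 against the geometric mean of fragments in the columns (log axis) for 9582 genes in grey and the 7 members in colour, with bars of ± 1 SD; dashed lines mark 2-fold. Sdc1 and Igj lie near 3.4, Txndc5 at 1.68 and Xbp1 at 1.02, just past the line, while Prdm1, Mzb1 and Irf4 lie in the body of the genes.

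Of the members that act in the ER, Txndc5 differed between the columns and Mzb1 did so by less than its SD. Txndc5 (chromosome 13, 38500079 to 38528824, minus strand) had 6401 ± 611 fragments in q2 and 1994 ± 179.7 in q1. Its log2 ratio was 1.68 ± 0.19, a 3.21-fold difference, and it ranked 86 of 9582. On the other strand the annotation places Bmp6, Gm47994 and Gm31834 across parts of it. Bmp6 had 3.27 fragments in q2 and 3.58 in q1, and whether the counting used strand is not stated.

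Among the transcription factors, Xbp1 was the member at least 2-fold higher in q2. Xbp1 (chromosome 11, 5520659 to 5525893, plus strand) had 4354 ± 388 fragments in q2 and 2142 ± 189 in q1. Its log2 ratio was 1.02 ± 0.18, a 2.03-fold difference that lies within 1 SD of the 2-fold size rule, with a counting interval of 0.95 to 1.10 that includes the rule. These fragments count the gene as a whole and do not separate the spliced, active form of its messenger RNA from the unspliced form. Prdm1 (chromosome 10, 44437177 to 44528501, minus strand) had 461 ± 54.2 fragments in q2 and 388 ± 45.7 in q1, a log2 ratio of 0.25 ± 0.24, which is about as large as its SD. Irf4 (chromosome 13, 30749226 to 30766976, plus strand) was the member lower in q2, with 8357 ± 732 fragments in q2 and 10113 ± 929 in q1. Its log2 ratio was -0.28 ± 0.18, less than 2 SDs from 0, and it ranked 8971 of 9582. Per kilobase of transcript, Irf4 had a level of 1754 fragments in q2 and 2123 in q1, and Prdm1, a gene that IRF4 is known to activate, had a level of 87.2 fragments in q2 and 73.4 in q1.

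Ordered by ratio, the members formed steps. The ratio of Igj exceeded that of Txndc5, the next lower, by 1.67 ± 0.33, that of Txndc5 exceeded that of Xbp1 by 0.66 ± 0.26, and that of Xbp1 exceeded that of Prdm1 by 0.77 ± 0.30. Prdm1 and Mzb1 differed in ratio by 0.17 ± 0.30, and Mzb1 and Irf4 by 0.35 ± 0.25, the first within the SD of the difference and the second 1.39 times it. The secreted product and the surface marker therefore stood highest, an ER protein and the ER transcription factor next, and the regulators Prdm1 and Irf4 among the lowest, together with Mzb1.

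To show the start sites of members that were higher in q2, 250 bases upstream of RefSeq start sites (GRCm38.p6, 5′ to 3′ on the gene's strand) are printed for Igj (chr5:88527898-88528147, minus strand), Xbp1 (chr11:5520391-5520640, plus strand) and a pair of Txndc5 start sites (chr13:38528825-38529074 and chr13:38527915-38528164, minus strand). Windows that overlap an annotated untranslated region, such as that of Sdc1, are not printed. Capitals mark letters that match any motif searched.
Igj: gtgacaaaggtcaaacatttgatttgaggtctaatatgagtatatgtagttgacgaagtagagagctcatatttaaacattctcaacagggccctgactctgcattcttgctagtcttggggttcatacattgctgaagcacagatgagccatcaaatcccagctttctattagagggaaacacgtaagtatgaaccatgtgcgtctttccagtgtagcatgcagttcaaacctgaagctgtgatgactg
Xbp1: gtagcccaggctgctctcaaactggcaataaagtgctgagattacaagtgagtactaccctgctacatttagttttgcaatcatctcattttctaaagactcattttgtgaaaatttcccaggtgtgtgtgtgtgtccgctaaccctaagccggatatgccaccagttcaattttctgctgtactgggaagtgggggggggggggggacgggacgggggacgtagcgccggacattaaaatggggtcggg
Txndc5, most upstream start site: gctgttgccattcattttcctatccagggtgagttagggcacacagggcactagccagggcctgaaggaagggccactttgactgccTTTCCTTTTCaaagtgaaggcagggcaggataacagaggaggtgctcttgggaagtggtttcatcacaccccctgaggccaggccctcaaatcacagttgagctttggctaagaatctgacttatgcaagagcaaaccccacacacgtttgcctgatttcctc
Txndc5, most downstream start site: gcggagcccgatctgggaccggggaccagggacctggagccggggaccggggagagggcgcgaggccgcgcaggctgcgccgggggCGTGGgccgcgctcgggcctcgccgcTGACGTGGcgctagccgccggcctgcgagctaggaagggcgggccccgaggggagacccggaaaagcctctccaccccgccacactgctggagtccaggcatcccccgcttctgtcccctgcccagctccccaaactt

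The motifs were searched on both strands, from 250 bases before to 50 after the start, in the 6 members with an entry and in all 32851 entries. They were TGACGTGG, the unfolded protein response element to which XBP1 binds, and CCACGT, its core, which overlaps it on the other strand. For the ER stress response element they were CCAAT and CCACG alone, CCAAT followed after 9 bases by CCACG, and ATTGG followed after 1 base by CCACG. For IRF4 they were GAAA followed after 2 bases by GAAA, and GGAA followed after 2 bases by GAAA. TGACGTGG was found 138 bases upstream of the most downstream start site of Txndc5 and in no other window of the members, and 0.676% of all entries hold it. That window also held CCACGT, which 8.31% of entries hold. The most upstream window of Txndc5 held the GAAA pair, as do 3.44% of entries. The windows of Igj and Xbp1 held no match to any motif searched. Irf4, lower in q2, and the middle start site of Txndc5 held CCACG, as do 32.8% of entries, and Prdm1 and Sdc1 held CCACG and CCAAT, of which CCAAT is found in 37.4%. The complete ER stress response element was found in none of the members' windows and in 0.119% of entries for its first form and 0.0365% for the other, and the GGAA form for IRF4, in 2.72% of entries, was likewise in none of them. A match is a description of the letters, not a site.

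Mzb1 (chromosome 18, 35647267 to 35649367, minus strand) had 6077 ± 527 fragments in q2 and 5761 ± 496 in q1, a log2 ratio of 0.08 ± 0.18. The columns overlapped within 1 SD. The annotation places Spata24 in overlap with Mzb1 on the same strand, and Spata24 was counted at 68.8 fragments in q2 and 62.6 in q1. Mzb1 is also a known marker of marginal zone B cells, and it stood at rank 448 in q2 and 498 in q1.

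Levels can be compared between genes only per length. Per kilobase of the longest coding transcript, Igj had the highest level in q2, at 23694 fragments, followed by Mzb1 at 6723, Txndc5 at 2252, Xbp1 at 2045, Irf4 at 1754, Sdc1 at 153 and Prdm1 at 87.2. In q1 Mzb1 was the highest, at 6373 fragments per kilobase, followed by Igj at 2322, Irf4 at 2123, Xbp1 at 1006, Txndc5 at 701, Prdm1 at 73.4 and Sdc1 at 13.9. In q2 the levels of Txndc5 and Xbp1 differed by less than the SD of their difference and those of Xbp1 and Irf4 by 1.22 times it. In q1 this held for Igj and Irf4, which differed by 0.62 of that SD, and whose order turns when the longest transcript of any kind is used for Igj, giving 14099 fragments per kilobase in q2 and 1382 in q1. All other neighbours were more than 2 SDs apart. Sdc1 was above Prdm1 in q2 and below it in q1.

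The variances that came with the counts followed abundance for most members. The coefficient of variation of Sdc1 was 12.0% in q2 and 25.3% in q1, near the running medians of 11.1% in q2 and 24.1% in q1 over genes of similar count. For Prdm1 it was 11.8% in both q2 and q1, and for Xbp1, Irf4 and Mzb1 it lay between 8.62% and 9.19%, close to the running medians. Txndc5, at 9.54% in q2 and 9.02% in q1, lay slightly above them. Igj stood out, with 15.0% in q2 against a running median of 10.5%, and 10.9% in q1 against 8.64%.

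**Figure D3:**
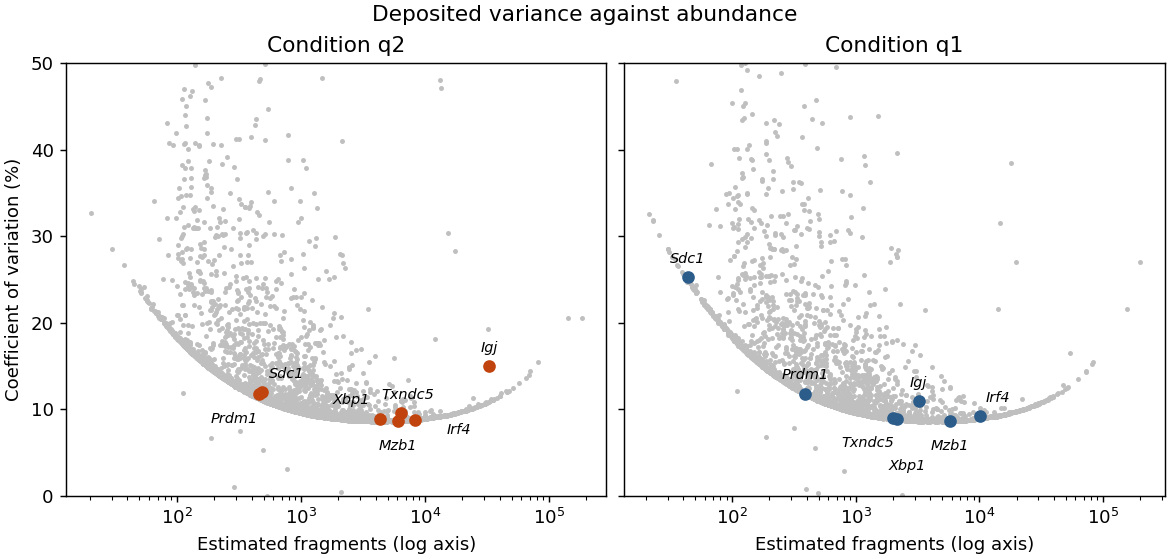
Coefficient of variation from the deposited variance against estimated fragments (log axis), q2 on the left and q1 on the right, with the genes compared that had at least 20 fragments in that condition in grey and the members in colour; 69 genes in q2 and 70 in q1 lie above the top of the axis at 50%. Igj lies above the lower edge of the cloud in both conditions, and the other members lie on or near it.

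The genes nearest in ratio to each member were listed with the difference in ratio as the measure of likeness, which rests on 2 columns only. Nearest to Igj were Sdc1 itself and Rapgef3 at 3.22 ± 0.58, and nearest to Sdc1 were Igj and Mef2b, a factor of germinal center B cells, at 3.64 ± 0.56. Txndc5 was matched by Gpsm2 at 1.68 ± 0.85 and Vim, encoding the filament protein vimentin, at 1.67 ± 0.22. Xbp1 was matched by the Y-linked gene Eif2s3y at 1.03 ± 0.31 and by the integrin gene Itga6 at 1.03 ± 0.34. For the members near 0 the closest genes were Gramd4 and Lsm5 for Prdm1, Ube2z and Rprd1b for Mzb1, and Map2k6 and Kcnk5 for Irf4, each within 0.001 of the member, where many genes lie.

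Other genes of the plasma cell surface differed unequally. Of 16 receptors and surface genes on the list, 12 reached 100 fragments, 9 of these were higher in q2 and 3 of them 2-fold or more. The median log2 ratio was 0.35. Over all genes compared, the reference for this and the following lists, 50.2% were higher in q2, 1.84% at least 2-fold higher and 0.438% at least 2-fold lower. The 3 lower in q2 were Ly6k at -0.61 ± 0.31, Cd81 at -0.28 ± 0.18 and Tnfrsf13b at -0.14 ± 0.22. Cd28 and Cd93 reached 100 fragments through q2 alone. Cd28, a costimulatory receptor that also serves long-lived plasma cells, had 165 fragments in q2 and 30.3 in q1, at 2.40 ± 0.46. Cd93, which plasma cells need to persist in bone marrow, stood at 2.19 ± 0.42, Enpp1, an ectoenzyme, at 1.55 ± 0.27, and Itgb7, an integrin chain of gut homing, at 0.99 ± 0.20. Tnfrsf17, the survival receptor BCMA, was below the minimum, with 62.2 fragments in q2 and 4.65 in q1, 13.4-fold apart with 95% counting limits of 5.28 and 44.9.

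Further regulators of plasma cells were near equal as a list, with 8 of 15 higher in q2, 2 of them 2-fold or more, and a median of 0.020. Bhlha15, encoding the secretory cell factor MIST1, an XBP1 target, had 290 fragments in q2 and 63.4 in q1, at 2.17 ± 0.36. Eaf2, a partner of the elongation factor ELL2, stood at 1.35 ± 0.43, Creb3l2, an ER-bound transcription factor, at 0.99 ± 0.26, and Ell2, which favours the secreted form of the antibody heavy chain, at 0.46 ± 0.19. Id2, an inhibitor of E proteins, was lower in q2 at -0.50 ± 0.23.

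Most listed genes of ER folding, translocation and export, among them XBP1 targets, were higher in q2 by small amounts. The part of XBP1 in this was not tested. Of 30 folding and quality control genes compared, 26 were higher in q2, against 50.2% of all genes compared. Of the 26, 3 were past the 2-fold rule and 13 were higher by more than 2 SDs. Of all 9582 genes compared, 398 were higher in q2 by more than 2 SDs, and 7717 lay within 1 SD of 0. The 4 lower in q2 were Pdia4 at -0.28 ± 0.20, Dnajb9 at -0.14 ± 0.19, Ero1l at -0.08 ± 0.19 and Derl1 at -0.03 ± 0.18. Within 1 SD of 0 lay 8 of the 30, and the median was 0.28. Creld2, an ER stress-induced secreted protein, had 1373 fragments in q2 and 503 in q1, at 1.45 ± 0.21. Derl3, part of the disposal route for misfolded proteins, stood at 1.37 ± 0.24, Prdx4, an ER peroxiredoxin, at 1.20 ± 0.27, Manf at 0.87 ± 0.19 and the chaperone gene Hspa5 (BiP) at 0.25 ± 0.20. Of 34 genes of translocation into and export from the ER, 32 were higher in q2, 2 of them past the 2-fold rule and 8 by more than 2 SDs, while 12 of the 34 lay within 1 SD of 0; the median was 0.25. Sec24d, a cargo adaptor of COPII vesicles, led them with 354 fragments in q2 and 77.3 in q1, at 2.18 ± 0.34. Tram2, a translocation protein, stood at 1.10 ± 0.38. Sec24d and Tram2, the genes past the 2-fold rule, reached the minimum for comparison through q2 alone. They could therefore only come out higher in q2. Lman1, a cargo receptor, stood at 0.69 ± 0.19, and Ssr4, a subunit of the translocon-associated complex, at 0.68 ± 0.20.

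**Figure D4:**
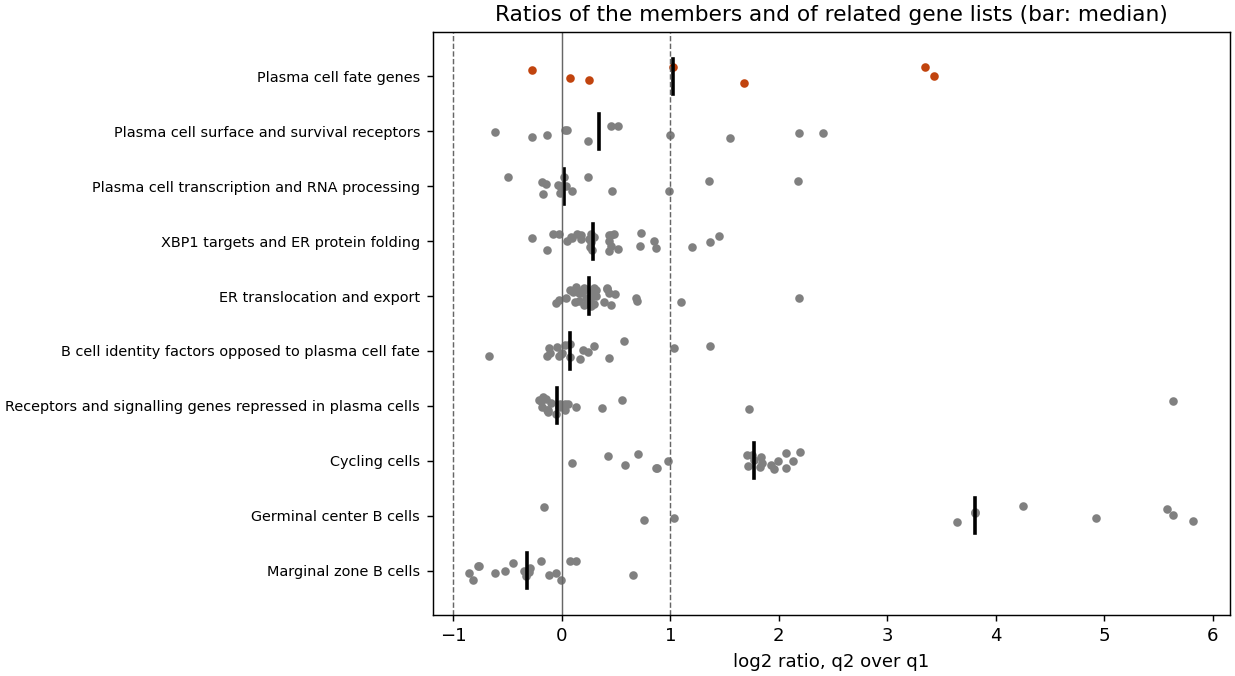
Log2 ratios of q2 over q1 for the members (top) and for the genes of 9 related lists that reached 100 fragments; each point is a gene, black bars are medians and dashed lines mark 2-fold. The members spread from -0.28 to 3.43, the ER lists sit slightly above 0, with medians of 0.28 and 0.25, and the B cell identity list is centred near 0, at 0.070.

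The B cell programme that plasma cells switch off was present in both columns. Of 19 factors opposed to plasma cell fate, 11 were higher in q2, including 2 past the 2-fold rule; the median was 0.070. Pax5, the central factor of B cell identity and a target of repression by Blimp-1, had 3812 fragments in q2 and 4107 in q1, at -0.11 ± 0.18. Bach2, a repressor of Prdm1, had 1995 fragments in q2 and 772 in q1, at 1.37 ± 0.20, and Bcl6, the germinal center repressor that also acts on Prdm1, had 1130 fragments in q2 and 553 in q1, at 1.03 ± 0.21. Irf8 stood at 0.24 ± 0.18, Id3 at 0.57 ± 0.25, and Myc, which Blimp-1 represses, was lower in q2 at -0.67 ± 0.19. So q2, where Igj, Sdc1 and Xbp1 were higher, also had the higher values of Bach2 and Bcl6. Of 20 receptors and signalling genes that plasma cells repress, 12 were lower in q2 and 8 higher, 0 lower by 2-fold and 2 higher past the 2-fold rule, and the median was -0.043. Fcer2a, encoding CD23, had 2265 fragments in q2 and 683 in q1, at 1.73 ± 0.20. Cd83 stood at 0.56 ± 0.18 and Ccr7 at 0.37 ± 0.20. Antibody constant region genes were not analysed here.

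Other cells and states moved with these values, and their part in the results was not tested. The 21 cell cycle genes summed to 19586 fragments in q2 and 8278 in q1. Each was higher in q2, 14 of them past the 2-fold rule, with a median of 1.77. Over all genes compared, 50.2% were higher in q2 and 1.84% past that rule. Cdk1, Ccnb1, Ccnb2, Aurka, Birc5, Bub1, Plk1, Ube2c and Cdc20 reached 100 fragments through q2 alone, so they could only come out higher in q2. Of 11 genes on the germinal center list, 10 were higher in q2, 9 of them past the 2-fold rule. The 1 lower in q2 was Gpr183, at -0.16 ± 0.39. The 11 genes had sums of 4707 in q2 and 2307 in q1. Their median was 3.81, or 0.44 with a minimum of 500 fragments, which only Bcl6 and Gpr183 reach. Of the 11, 8 reached 100 fragments through q2 alone. Markers of marginal zone B cells were abundant in both columns, with 170523 fragments in q2 and 201418 in q1 over 18 genes including Mzb1. Cr2 alone supplied 70851 of these fragments in q2 and 81167 in q1. Of the 18, 15 were lower in q2, 0 of them by 2-fold or more, and the median was -0.32. Within 1 SD of 0 lay 6 of the 18, against 7717 of the 9582 genes compared. T cell markers summed to 1477 fragments in q2 and 1027 in q1 over 12 genes, of which 3 were compared and higher in q2. Lck alone supplied 689 of these fragments in q2 and 524 in q1. Cd28 is on this list as well as on the plasma cell list, and Cd28 and Tcf7 reached 100 fragments through q2 alone. Macrophage and monocyte markers summed to 1054 in q2 and 1542 in q1, with 6 of 8 compared lower in q2, 5 of them past the 2-fold rule. These 5 reached 100 fragments through q1 alone, and the 2 higher in q2, Emr1 and Ly6c2, through q2 alone. Dendritic cell markers summed to 733 in q2 and 571 in q1, with all 3 compared higher in q2. Of these, Bst2 was near equal, at 0.01 ± 0.25, and Itgax and Flt3 reached 100 fragments through q2 alone. Markers of neutrophils, NK cells, erythroid cells and platelets summed to 413 in q2 and 455 in q1, with Elane and Pf4 below 1 fragment in both columns. The lower sum in q2 rests on Prf1, the 1 gene of this list that was compared, with 190 fragments in q2 and 265 in q1. Ackr3 itself had 149 fragments in q2 and 1030 in q1, at -2.78 ± 0.27. The Y-linked genes Ddx3y, Eif2s3y, Kdm5d and Uty had log2 ratios between 0.96 and 1.24, while Xist, expressed from the inactive X chromosome, had 32210 fragments in q2 and 53962 in q1.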

How the data were processed

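Marginal zone B cell RNA, extracted with Trizol, was made into libraries with an Illumina TruSeq kit, per the labels' protocols. The authors' tools were cutadapt 1.8.1, Cuffdiff 2.2.1 and TopHat2 2.0.14, on mm10, per the submitters' processing notes. The gene annotation and strand setting were not given in the sources used here. The authors deposited estimated counts, which are not whole numbers, with other values in squared fragments, the variance and its isoform and dispersion parts, per condition; the isoform part is above 0 for 0 genes. Counts were used as deposited, without rounding, and summed to 16653774 in q2 and 16877559 in q1; the depth of each library is unknown.

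Python 3.11.15 was used to compute log2 ratios, q2 over q1, after adding a pseudocount of 1, so changes of low genes are understated. SDs of these ratios were propagated to first order from the variances. Genes reaching 100 fragments in at least 1 column were compared by size, with 2-fold as the rule. The calculation was tested on simulated data. Members and lists were chosen with earlier results of these data known. Besides the members, the text names up to 4 genes per pathway list with the largest absolute ratio, 8 set genes (Pax5, Bach2, Bcl6, Irf8, Ell2, Tnfrsf17, Hspa5 and Ackr3), the 2 genes nearest to each member, and, of each marker list, genes among the 3 most abundant or the 2 largest ratios; the sex-linked and overlapping genes, Elane and Pf4 were chosen after their values were seen. Not every gene that the rule names is reported here. Some genes outside the rule are named because they were lower in q2 or reached 100 fragments through q2 alone. Positions and lengths are from GENCODE M21 (GRCm38), with levels per length on the longest coding transcript, chosen over the longest of any kind after the data were seen because that of Igj is a retained intron; Igj was matched through a RefSeq synonym. Alternatives were other pseudocounts, minimums, scalings and size rules.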

Additional observations from a re-analysis of the deposited data

How the results depend on the processing

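Pseudocounts of 0 and 10, equal totals and scaling by the median ratio left all 28 recomputed ratios of the 7 members within their 95% counting intervals; these scalings shift every ratio by 0.019 and -0.00053 on the log2 scale. Sdc1 ranged most, between 3.20 and 3.46, and Xbp1 lay between 1.02 and 1.04, above the 2-fold rule each time. The count of 4 members at least 2-fold higher in q2 was the same with a 1.5-fold rule, with a further requirement of 2 SDs and with a minimum of 20 fragments, and became 3 with a minimum of 500, which Sdc1 and Prdm1 do not reach. With a minimum of 20 fragments, which compares more genes, the 176 genes of the whole table at least 2-fold higher in q2 and the 42 lower became 346 and 102. With 500, which compares fewer, they became 39 and 14, and under the 1.5-fold rule 325 and 151. Among 75 list medians, 71 moved by less than the counting error of a typical gene of the list. The 4 that did not were, with a minimum of 20, those of plasma cell surface genes (0.52), dendritic cells (0.20) and the list of neutrophils to platelets (-0.13), and, with 500, that of germinal center genes (0.44). No paired analysis was possible because both columns are pooled values without replicate numbers. Leaving out a library, a replicate block and a count test were not run on this account.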

Other observations

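In the deposited variances, the dispersion part exceeded the whole variance for 1057 genes in q2 and 1048 in q1. Xbp1 is among them, with 151879 against 150582 squared fragments in q2 and 36149 against 35880 in q1.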
